A study of Mus musculus with 12 samples.

Results

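The miRNAs described here are mmu-miR-208a, mmu-miR-208b and mmu-miR-499, each of which is cut from a hairpin in an intron of a myosin heavy chain gene. Both arms of each hairpin were taken by name, which gave 6 of the 1966 mature miRNAs in the count table. The rule used their names and no measured value. The libraries hold small RNA of the quadriceps from C57BL/6J wild-type mice aged 1, 5, 14 or 90 days after birth, called P1, P5, P14 and P90. Each age was represented by 3 libraries from 3 mice, and the panel was made to learn which miRNAs changed in muscles lacking the splicing factor Mbnl1 also changed during normal muscle growth. All 12 libraries came from wild-type whole muscle, so each value is a mean over every cell type of the tissue.

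Mature miRNAs are made in the nucleus and cytoplasm from a hairpin, of which usually a single arm is loaded into the silencing complex in quantity, and the bases near its 5′ end, the seed, pair with target mRNAs. The hairpins of this family lie within genes for the motor protein of striated muscle. Myh6 encodes the fast alpha myosin of the heart, Myh7 the slow beta myosin of slow skeletal fibres and of the fetal heart, and Myh7b a related slow myosin. Mmu-miR-208b and mmu-miR-499 are known in skeletal muscle for favouring the slow fibre programme through repressors of slow genes such as Sox6, whereas mmu-miR-208a is known as a heart miRNA.

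The Mir499 hairpin lies at chr2:155622880-155622958 on the plus strand, Mir208b at chr14:54975700-54975776 and Mir208a at chr14:54949060-54949142, both on the minus strand (RefSeq, GRCm38.p6). In the canonical GENCODE transcripts, Mir499 is in intron 19 of 41 of Myh7b, Mir208b is in intron 31 of 40 of Myh7, and Mir208a is in intron 29 of 38 of Myh6. Each hairpin is on the same strand as its host gene, none touches an exon of it, and none overlaps another of the 1005 RefSeq hairpins. The mature sequences are shown because the arms fall into groups by their seed, bases 2 to 8, which stands in capitals.
mmu-miR-499-5p: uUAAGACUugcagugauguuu
mmu-miR-208b-3p: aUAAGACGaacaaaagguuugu
mmu-miR-208a-3p: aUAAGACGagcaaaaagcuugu
mmu-miR-208a-5p: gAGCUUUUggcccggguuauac
mmu-miR-208b-5p: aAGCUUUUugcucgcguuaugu
mmu-miR-499-3p: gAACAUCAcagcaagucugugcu
The 3 arms printed first share bases 2 to 7 (UAAGAC), and no other of the 1675 miRNAs of the table with a RefSeq sequence holds them. The full seed UAAGACG was found in mmu-miR-208a-3p and mmu-miR-208b-3p alone, and mmu-miR-499-5p ends its seed in U. Mmu-miR-208a-3p and mmu-miR-208b-3p differ at 3 of 22 positions, which are G10A, A16G and C18U with the mmu-miR-208a-3p base first and positions counted from 1 at the 5′ end. Between mmu-miR-208b-3p and mmu-miR-499-5p 11 of 21 positions differ, and within bases 1 to 8 these are A1U and G8U. The seed of the 5p arms of both miR-208 hairpins, AGCUUUU, is shared with mmu-miR-6415. The 5p arms of both miR-208 hairpins differ at 6 of 22 positions.

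The hairpins of the most abundant members are printed with both mature arms in capitals, the 5p arm first. They show that the shared UAAGAC lies in the 5p arm of Mir499 and in the 3p arm of Mir208b.
Mir499: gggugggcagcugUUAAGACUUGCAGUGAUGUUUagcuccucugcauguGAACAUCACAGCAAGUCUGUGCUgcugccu
Mir208b: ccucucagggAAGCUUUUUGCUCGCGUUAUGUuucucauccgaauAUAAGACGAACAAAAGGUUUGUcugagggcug

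Library totals ranged from 20363495 to 53126984 counts, and values are given as CPM, counts scaled to 1e6 per library, after TMM scaling by a trimmed mean of ratios between libraries (normalised CPM). At P90 the TMM factors were only 0.247 to 0.384, against 1.24 to 1.72 elsewhere. The normalised CPM at P90 is thus several times the share of raw counts, and values by library totals are given beside the comparisons with P90. Libraries of the same age differed by 155 to 1056 in chi-square per degree of freedom, so each was kept as a sample of its own. The P14 and P90 libraries also followed base composition in opposite ways. Per 10 points of GC, miRNA levels relative to their means moved by 0.38 to 0.56 log2 units at P14, by -0.60 to -0.37 at P90 and by -0.01 to 0.07 at P1 and P5. The mature members have a GC content of 31.8% to 54.5%, so values with this trend removed are also given for mmu-miR-499-5p and mmu-miR-208b-3p. The 3 marker miRNAs of skeletal muscle (miR-1a-3p, miR-133a-3p and miR-206-3p) were found in every library and held 23.9% to 34.1% of counts at P1, P5 and P14 and 55.7% to 58.5% at P90.

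Mmu-miR-499-5p carried nearly all counts of the family. Its counts per library were 27263, 32447 and 41597 at P1, then 13104, 24713 and 19489 at P5. They were 2651, 1905 and 1954 at P14 and 256, 1497 and 724 at P90. It held 99.0% of the counts summed over the 3 arms that share bases 2 to 7, and between 96.2% and 99.2% in single libraries. The arms are 21 to 23 bases long, so counts of different arms need no correction for length.

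In normalised CPM, mmu-miR-499-5p stood at 722, 749 and 991 in the P1 libraries, with a mean of 820 ± 148 (SD, n = 3 at each age). The P5 libraries held 335, 592 and 440, with a mean of 456 ± 129. At P14 it stood at 73.0, 46.9 and 68.3, a mean of 62.7 ± 13.9, and at P90 at 15.2, 79.4 and 60.3, a mean of 51.6 ± 32.9. Every P1 library was above every P5 library, and every P5 library was above every P14 library. The P14 and P90 libraries overlapped. How many of all miRNAs were separated in this way was not counted, for these ages or for the separations of members given below. Ranked by mean normalised CPM among the 1966 miRNAs, it came 86th in the P1 group, 120th in P5, 218th in P14 and 170th in P90.

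Mmu-miR-208b-3p, the main arm of the hairpin in Myh7, followed the same order of ages at a level 115-fold lower at P1 and 102-fold lower at P5 by the mean log ratio of counts. Its counts were 221, 274 and 402 in the P1 libraries and 100, 243 and 240 in those of P5. They were 77, 43 and 27 in the P14 libraries and 10, 9 and 5 in those of P90. The normalised CPM was 5.85, 6.32 and 9.57 at P1 and 2.56, 5.83 and 5.42 at P5. At P14 it was 2.12, 1.06 and 0.944, and at P90 it was 0.595, 0.477 and 0.416. The ages followed each other without overlap between neighbouring groups, with means of 7.25 ± 2.03 in newborns, 4.60 ± 1.78 in the P5 group, 1.37 ± 0.648 in the P14 group and 0.496 ± 0.0906 in adults.

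Mmu-miR-499-3p, the partner arm of mmu-miR-499-5p, held 86, 124 and 210 counts at P1 and 35, 100 and 22 at P5. It held 15, 0 and 6 at P14 and 0, 1 and 1 at P90. Its mean of 3.38 ± 1.43 normalised CPM at P1 compared with 1.26 ± 1.00 at P5, and P14 with 0.208 ± 0.207 stood above P90 with 0.0454 ± 0.0422. The P1 and P5 libraries overlapped slightly, and all P90 values lay below the lowest value of P1 and of P5.

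**Figure D1:**
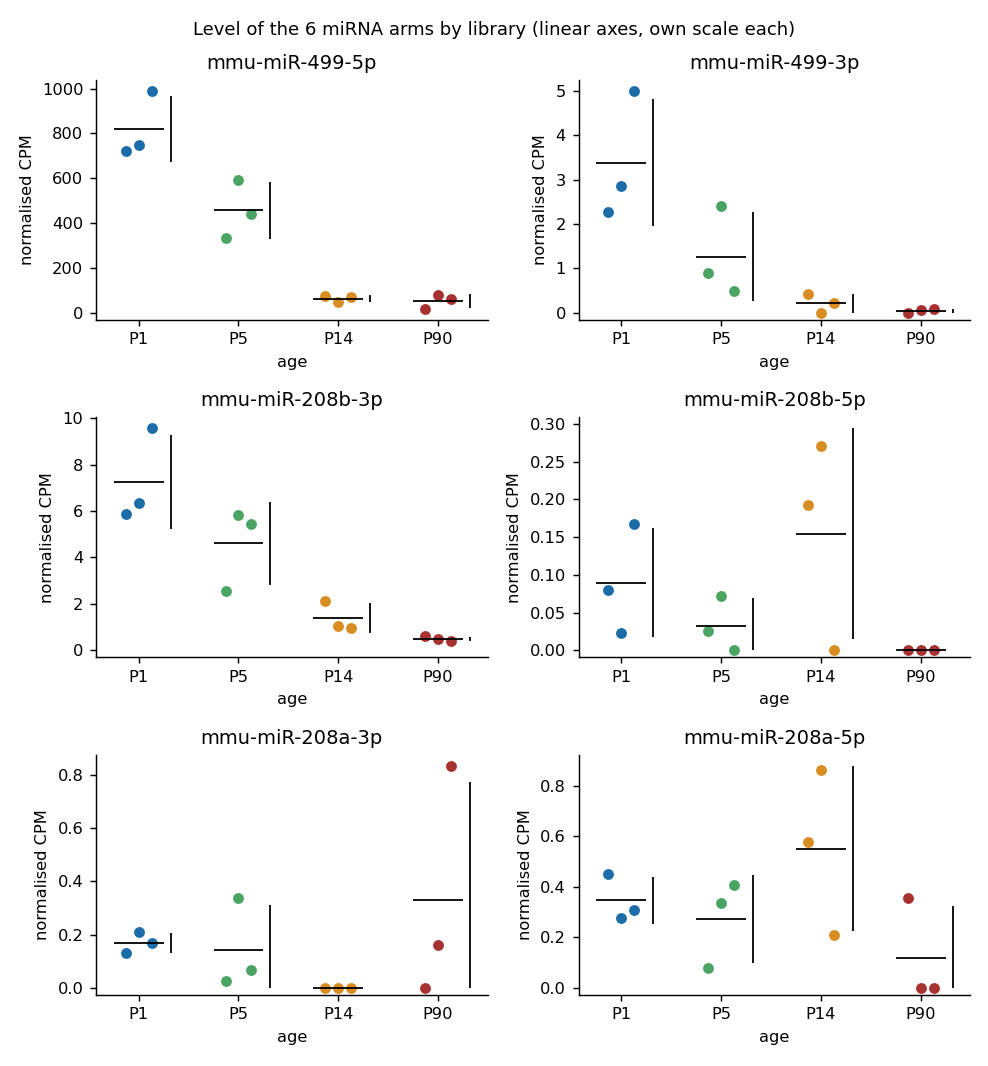
Level of each of the 6 arms in normalised CPM (vertical axis, linear, with its own scale in each panel) at P1, P5, P14 and P90. Points are libraries in replicate order, horizontal lines are means and vertical lines are ± SD over 3 libraries. Mmu-miR-499-5p lies between 722 and 991 at P1 and between 46.9 and 73.0 at P14, and every value of mmu-miR-208b-5p, mmu-miR-208a-3p and mmu-miR-208a-5p lies below 1.

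The remaining 3 arms were near the limit of detection. Mmu-miR-208a-3p, the arm known as a heart marker, had 5, 9 and 7 counts at P1 and 1, 14 and 3 at P5. It had none in any P14 library, and 0, 3 and 10 at P90. A count of 0 allows up to 3 counts, or 0.125 to 0.147 CPM by library totals at P14. With a floor of 3 counts over the 3 P14 libraries, the level at P14 was 5.06-fold lower by normalised size than at P5, where 18 were found. The level at P90, with 13 counts in all, was then 9.59-fold higher than at P14, or 2.02-fold higher by library totals. These values treat the P5 and P90 sums as exact. By normalised size, the counting interval for P14 against P5 reached down to 3.71-fold lower. For P14 against P90, it allowed a P14 level of up to 0.148 of that at P90. The P5 and P90 sums rest mainly on 1 library each, with 14 and 10 counts. The heart muscle marker of the panel was thus at or near 0 in all libraries of this hindlimb muscle.

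Mmu-miR-208a-5p had 17, 12 and 13 counts at P1 and 3, 14 and 18 at P5, then 21, 35 and 6 in the P14 libraries and 6, 0 and 0 in the P90 libraries. By mean normalised CPM, P14 was highest with 0.550 ± 0.327, followed by P1 with 0.346 ± 0.0920, P5 with 0.273 ± 0.174 and P90 with 0.119 ± 0.206, and neighbouring ages overlapped. Mmu-miR-208b-5p had 3, 1 and 7 counts at P1 and 1, 3 and 0 at P5, then 7, 11 and 0 in the P14 libraries and 0 in each P90 library. With a floor of 3 counts at P90, it was 2.71-fold lower than at P14 by normalised size and 12.9-fold lower by library totals. These values treat the P14 sum as exact, and the counting interval by normalised size reached down to 1.99-fold. The last P14 library also held 0 counts, so the P14 and P90 libraries were not separated.

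The share of the 2 arms of a hairpin differed between the 3 hairpins. Mmu-miR-499-3p made up 0.357% of the counts of both Mir499 arms over all libraries (600 of 168200 counts, 95% exact interval 0.329% to 0.386%). Mmu-miR-208b-5p made up 1.96% of the Mir208b counts (33 of 1684, 1.35% to 2.74%). By contrast, mmu-miR-208a-5p made up 73.6% of the Mir208a counts (145 of 197, 66.9% to 79.6%), so the arm with the shared seed was the less counted one there. The 3 intervals do not overlap, but they cover counting error only and not the spread between libraries.

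By age, the mmu-miR-208a-5p share was 66.7% of 63 counts in the P1 group, 66.0% of 53 in P5, 100% of 62 in P14 and 31.6% of 19 in P90. The mmu-miR-208b-5p share was 1.21% at P1, 0.681% at P5 and 10.9% at P14 (18 of 165 counts), where the libraries held 8.33%, 20.4% and 0%, the last being 0 of 27 counts, which allows up to 11%. At P90 it was 0 of 24 counts, which allows a share of up to 12.5%. The 5p shares of both miR-208 hairpins were thus higher at P14 than at P1 and P5, and P14 was also the age where miRNAs of high GC content were raised relative to the other ages, and the 5p arms have a GC content of 54.5% and 40.9% against 36.4% and 31.8% for the 3p arms. The part of GC content in these shares was not tested.

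Differences between ages were tested with edgeR's quasi-likelihood F-test in 1 model over the 12 libraries, with Benjamini-Hochberg adjustment over the 809 miRNAs that passed a filter on low counts (Padj), and a Padj under 0.05 was taken as a call. Of the 6 members, 4 passed the filter, while mmu-miR-208a-3p and mmu-miR-208b-5p had too few counts and were not tested. Mmu-miR-499-3p passed through the P1 and P5 libraries, where it was highest, so its calls of lower levels at later ages are given as values and not as support. Mmu-miR-208b-3p passed through the P1, P5 and P14 libraries, as its 10, 9 and 5 counts at P90 were too few for libraries of that size. Its calls of lower levels at P90 are likewise given as values and not as support. The same holds for mmu-miR-208a-5p, which also passed through the P1, P5 and P14 libraries and had 6, 0 and 0 counts at P90. Over any difference between the 4 ages, mmu-miR-499-5p (Padj = 4.98e-07), mmu-miR-208b-3p (Padj = 2.7e-06) and mmu-miR-499-3p (Padj = 0.000163) were called and mmu-miR-208a-5p was not (Padj = 0.346). Among all tested miRNAs 72.4% were called, so a call is common in this comparison. Fewer muscle cells or fibres of a type and less of a miRNA per cell cannot be told apart in these whole-muscle samples.

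Between P1 and P5 no member was called, at a background of 4.45% of the miRNAs tested. The log2 fold change (log2FC) was -0.85 (SE 0.40, edgeR Padj = 0.327) for mmu-miR-499-5p, -0.65 (SE 0.36, Padj = 0.412) for mmu-miR-208b-3p and -1.42 (SE 0.71, Padj = 0.351) for mmu-miR-499-3p. The 3 arms were therefore lower at P5 in their fitted means, and the libraries of the first 2 did not overlap, but none of these differences was called. None of the 4 had an unadjusted p under 0.05, and DESeq2 called none. The first P5 library was the lowest of its age for mmu-miR-499-5p, mmu-miR-208b-3p and both mmu-miR-208a arms, although its total of 30648679 counts was near those of the others. When only the P1 and P5 libraries were fitted, mmu-miR-499-5p was called (log2FC -0.88, edgeR Padj = 0.0332), and it was likewise called without the first P90 library (-0.86, edgeR Padj = 0.0456).

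Between P5 and P14 the main arms of the Mir499 and Mir208b hairpins both decreased. Mmu-miR-499-5p was downregulated 7.27-fold by the ratio of means, with a log2FC of -2.86 (SE 0.43, edgeR Padj = 5.89e-05). Mmu-miR-208b-3p was downregulated 3.33-fold, with a log2FC of -1.74 (SE 0.38, edgeR Padj = 0.00151). Mmu-miR-499-3p had a log2FC of -2.61 (SE 0.82, edgeR Padj = 0.0165), and -2.71 with no filter on low counts (edgeR Padj = 1.55e-05). For all 3 arms the libraries of the 2 ages did not overlap, though how many of all miRNAs did likewise was not counted. Mmu-miR-208a-5p differed by 1.01 (SE 0.94, edgeR Padj = 0.426), which is within the spread between libraries. In this step 44.4% of the miRNAs tested were called, and the median log2FC of all was -0.07. Whether this or the next step was the larger depended on scaling for mmu-miR-208b-3p (-1.74 and then -1.45 with TMM, -1.47 and then -3.65 by library totals).

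The fall of mmu-miR-208b-3p between P5 and P14 was smaller once the trend with GC content was removed, with a log2FC of -1.05, and that of mmu-miR-499-5p was then -2.25. Both remained calls. The call of mmu-miR-499-3p was lost with only the 2 ages in the fit (log2FC -2.54, edgeR Padj = 0.0625) and without the second P5 library (-1.74, edgeR Padj = 0.122), which held 100 of the 157 counts at that age.

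From P14 to P90, 1 of these 2 main arms was called, which was mmu-miR-208b-3p with 10, 9 and 5 counts at P90. Mmu-miR-208b-3p fell further by 2.74-fold (log2FC -1.45, SE 0.46, edgeR Padj = 0.0124), whereas mmu-miR-499-5p had a log2FC of -0.28 (SE 0.40, edgeR Padj = 0.573). That the 2 changes differ was not tested for this step alone. The one member called stood against a background of 59.1% of the miRNAs tested. Mmu-miR-499-3p (log2FC -2.18, SE 1.38, edgeR Padj = 0.188) and mmu-miR-208a-5p (-2.13, SE 1.10, edgeR Padj = 0.111) were not called. For mmu-miR-499-3p, 2 counts at P90 against 21 at P14 gave a level 4.75-fold lower by normalised size, with a counting interval from 1.16-fold to 41.7-fold, and 22.5-fold lower by library totals. Both arms were called by library totals alone, with log2FC -4.15 (edgeR Padj = 0.00396) for mmu-miR-499-3p and -4.25 (edgeR Padj = 0.00275) for mmu-miR-208a-5p. In that setting 646 of the 809 miRNAs tested were called, 628 of them as decreases.

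The values of this last step depended on how the P90 libraries were scaled. By library totals alone, mmu-miR-499-5p averaged 95.7 CPM at P14 and 16.3 at P90 with no overlap, and its log2FC was -2.55 (edgeR Padj = 2.2e-05), beside a median over all miRNAs of -2.77. With upper-quartile factors it was upregulated by 1.29 (edgeR Padj = 0.00958), beside a median of 0.99. With TMM the median was -0.55. The log2FC of mmu-miR-499-5p was thus a little above the median change under each of these 3 scalings. A change of scaling moves all miRNAs and their median by nearly the same amount, so these are not separate results. Mmu-miR-208b-3p had a log2FC of -3.65 by library totals and 0.12 with upper-quartile factors (edgeR Padj = 0.841), below the median under both scalings. Its call was also lost with RLE size factors (-1.10, edgeR Padj = 0.0523) and without the first P14 library (-0.96, edgeR Padj = 0.0876). With the trend with GC content removed, both arms fell, by -1.74 for mmu-miR-499-5p (edgeR Padj = 0.000674) and -2.97 for mmu-miR-208b-3p (edgeR Padj = 2.59e-05). The median over all miRNAs was then -0.37, so mmu-miR-499-5p lay below the median in that setting.

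**Figure D2:**
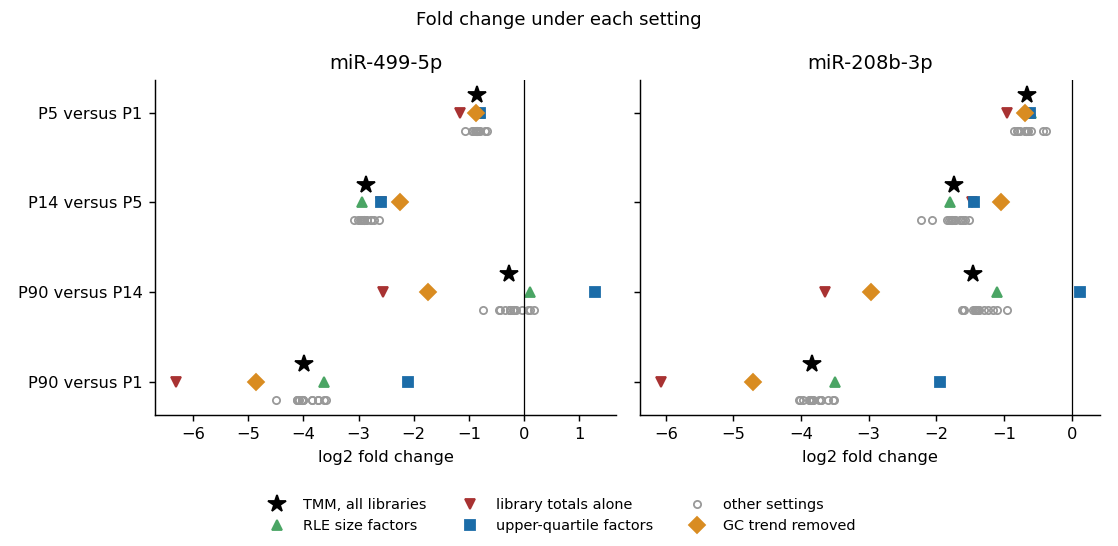
Log2 fold change (horizontal axis) of mmu-miR-499-5p (left) and mmu-miR-208b-3p (right) for each comparison of 2 ages, with the TMM value as a star, other scalings and the GC correction as filled symbols and the remaining settings, including those without 1 library, as open circles. Values for P5 versus P1 and P14 versus P5 all lie below 0, while those for P90 versus P14 run from -2.55 to 1.29 for mmu-miR-499-5p and from -3.65 to 0.12 for mmu-miR-208b-3p.

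The P90 libraries also differed most from each other in mmu-miR-499-5p. The highest was 5.21-fold above the lowest by normalised CPM and 4.82-fold by library totals, compared with 1.37-fold at P1, 1.77-fold at P5 and 1.56-fold at P14. The SD of its log2 level was 1.27 at P90, against a median SD of 0.28 over 350 miRNAs averaging 10 normalised CPM or more, and only 4 of them (1.14%) varied more. At P1, P5 and P14 its SD was 0.25, 0.41 and 0.34, against medians of 0.13, 0.13 and 0.18. The first P90 library was the low one, and in the same library mmu-miR-208b-3p was the highest of its age. Without it, mmu-miR-499-5p had a log2FC of 0.17 between P14 and P90 (edgeR Padj = 0.589).

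Between P1 and P90 the 3 arms were lower in adults with a Padj under 0.05 (edgeR) under every scaling tried. Of these, only mmu-miR-499-5p also had enough counts at P90 for the filter. Mmu-miR-499-5p was 15.9-fold lower in adults (log2FC -3.99, SE 0.45, edgeR Padj = 9.2e-07), and the call held in each of the 21 alternative settings, with log2FC values from -6.31 to -2.10. Mmu-miR-208b-3p was 14.4-fold lower (-3.85, SE 0.45, edgeR Padj = 1.36e-06), and it was called in the 21 settings with values from -6.08 to -1.95. Its counts passed the filter only through younger ages, so these calls are values and not support. These ranges come with medians over all miRNAs from -2.97 with library totals to 1.18 with upper-quartile factors. Both arms lay below the median under these scalings, which move all miRNAs together, so these are not separate results. Mmu-miR-499-3p was 81.4-fold lower by summed counts (420 at P1 and 2 at P90, counting interval 22.4-fold to 674-fold), or 391-fold lower by library totals, and its fitted log2FC was -6.20 (SE 1.13, edgeR Padj = 0.000156). Mmu-miR-208a-5p was not called (-1.45, SE 1.11, edgeR Padj = 0.263), although it was by library totals (-3.53, edgeR Padj = 0.00883). By library totals 683 of the 809 miRNAs tested were called in this comparison. With the GC trend removed, the log2FC was -4.86 for mmu-miR-499-5p and -4.71 for mmu-miR-208b-3p. In this comparison 66.4% of all tested miRNAs were called, with a median log2FC of -0.72, and 333 of the 537 calls were decreases.

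**Figure D3:**
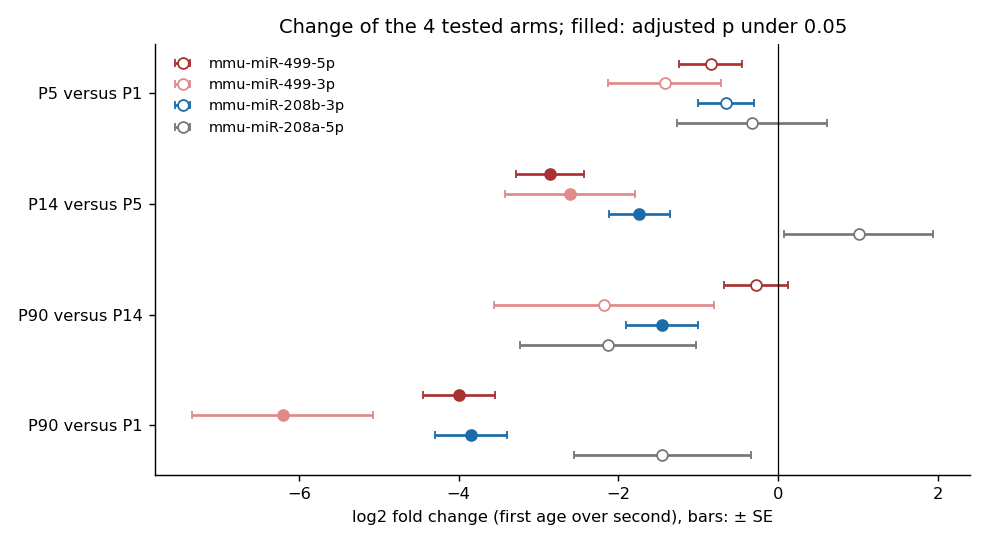
Log2 fold change (horizontal axis, first age over second) of the 4 tested arms in each comparison of 2 ages, with bars of ± SE from the edgeR fit. Filled symbols mark an edgeR Padj under 0.05; none is filled for P5 versus P1, 3 are for P14 versus P5 and for P90 versus P1, and only mmu-miR-208b-3p is for P90 versus P14.

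Markers of other cell types moved between the ages as well. The summed level of the 2 fibroblast markers, miR-199a-3p and miR-214-3p, was between 7982 and 9718 normalised CPM in the P1 libraries, between 5886 and 7511 in P5, between 2867 and 3838 in P14 and between 1430 and 2097 in P90. Its ranges thus had the same order of ages as the means of mmu-miR-499-5p and mmu-miR-208b-3p. The endothelial marker miR-126a-3p went from 3067 to 3998 at P1 to 9012 to 12061 at P90, and the 2 smooth muscle markers from 16760 to 19740 to 57060 to 73287. By library totals these directions turned, since the endothelial marker held 5218 to 5841 CPM at P1 and 2978 to 4164 at P90, and the smooth muscle markers 26274 to 30223 and 18096 to 24213. None of the marker miRNAs of endothelium, smooth muscle, fibroblasts, blood or nerve was at 0 in every library of an age. Their part in the values of the members was not tested.

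The ratio of 2 arms within a library does not depend on scaling, and 2 such ratios were compared over the 4 ages. It can still follow the trend with GC content, which is 33.3% for mmu-miR-499-5p, 31.8% for mmu-miR-208b-3p and 47.8% for mmu-miR-499-3p. The part of this trend in the ratios was not tested. The log2 ratio of mmu-miR-499-5p to mmu-miR-208b-3p (counts + 0.5) had a mean of 6.84 ± 0.13 for P1, 6.68 ± 0.34 for P5, 5.57 ± 0.54 for P14 and 6.32 ± 1.48 for P90. No difference between the ages beyond the spread between libraries was found (exact permutation test over all partitions of the libraries into 4 groups of 3, p = 0.291, 0.581 adjusted over the 2 ratios), where the smallest possible p was 6.49e-05. All 3 P14 libraries, at 5.10, 5.45 and 6.15, lay below the P1 and P5 libraries, and the P90 libraries ran from 4.61 to 7.30. Without the first P90 library, at 4.61, the adjusted p was 0.023 (exact permutation test), and the P90 mean was then above that of P1 by 0.33. In 14 of the 15 alternative settings the outcome was the same as with all libraries. At P90 the ratio rests on 10, 9 and 5 counts of mmu-miR-208b-3p.

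The log2 ratio of mmu-miR-499-5p to mmu-miR-499-3p had a mean of 7.98 ± 0.34 for P1, 8.74 ± 0.93 for P5, 9.18 ± 2.39 for P14 and 9.29 ± 0.58 for P90. Here too no difference beyond the spread was found (exact permutation test, p = 0.664, 0.664 adjusted). At P14 and P90 the ratio rests on 0 to 15 counts of the 3p arm per library, so a shift of arm usage was not detectable at this depth.

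**Figure D4:**
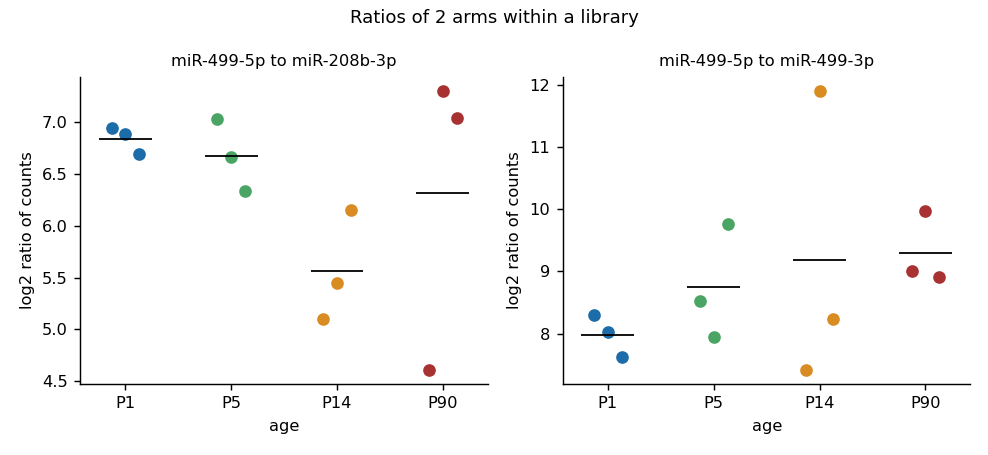
Log2 ratio of counts within each library (vertical axis, counts + 0.5) of mmu-miR-499-5p to mmu-miR-208b-3p (left) and to mmu-miR-499-3p (right) at the 4 ages, with points for libraries and lines for means of 3. On the left the P14 points lie between 5.10 and 6.15, below all P1 and P5 points, and 1 P90 point lies at 4.61.

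Since mmu-miR-499-5p and mmu-miR-208b-3p both decreased with age, the promoters of their host genes are printed (RefSeq, GRCm38.p6, from 250 bases before to 50 bases after a start of transcription). The Myh7b window is chr2:155610993-155611292, plus strand, and the Myh7 window is chr14:54994577-54994876, minus strand. Capitals mark matches to the MCAT element CATTCC, bound by TEAD factors in muscle genes, to the E-box CANNTG, bound by MyoD and other helix-loop-helix factors, and to TATAAA, each searched on both strands with no overlap between the matches found.
Myh7b: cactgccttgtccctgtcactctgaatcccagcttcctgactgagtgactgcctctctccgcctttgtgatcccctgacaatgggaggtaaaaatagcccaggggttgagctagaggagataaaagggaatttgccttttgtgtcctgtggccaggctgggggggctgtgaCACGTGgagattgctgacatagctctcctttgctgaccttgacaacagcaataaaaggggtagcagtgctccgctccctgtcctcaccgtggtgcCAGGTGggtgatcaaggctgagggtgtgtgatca
Myh7: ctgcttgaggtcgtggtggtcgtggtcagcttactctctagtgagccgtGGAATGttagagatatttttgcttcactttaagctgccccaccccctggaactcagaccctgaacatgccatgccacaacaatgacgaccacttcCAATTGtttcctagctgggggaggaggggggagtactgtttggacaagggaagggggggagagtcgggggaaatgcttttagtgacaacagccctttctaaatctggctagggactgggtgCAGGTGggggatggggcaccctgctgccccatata
The Myh7b window held 2 E-boxes and neither of the other motifs, and the Myh7 window held 1 MCAT element and 2 E-boxes. A second Myh7 start in the table, chr14:54994500-54994799, held the same 2 E-boxes and no MCAT element. The Myh6 window (chr14:54966558-54966857) held 1 MCAT element, 1 E-box and 1 TATAAA. Over all 32851 promoter windows of this length, 14.7% held CATTCC, 72.3% held CANNTG and 13.6% held TATAAA, so an E-box is common in any window. The levels of the host mRNAs were not measured in these libraries.

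To place the members among other miRNAs, the profile of each over the 12 libraries was compared as the root-mean-square (RMS) difference of centred log2(normalised CPM + 0.1), among 349 other miRNAs averaging 10 normalised CPM or more. Closest to mmu-miR-499-5p were miR-450b-5p at 0.49, miR-467e-5p at 0.66 and miR-503-5p at 0.70, where the median of all candidates was 1.95. Of these, miR-503-5p was of similar abundance at P1, with mean levels of 723, 556, 100 and 28.7 normalised CPM at P1, P5, P14 and P90. Closest to mmu-miR-208b-3p were miR-18a-5p at 0.44, miR-301a-3p at 0.47 and miR-362-3p at 0.57, with a median of 1.57. MiR-18a-5p, for example, had means of 111, 88.8, 27.8 and 8.03. The distance between mmu-miR-499-5p and mmu-miR-208b-3p was 0.83, and 8 other miRNAs were nearer to mmu-miR-499-5p than that. The points share libraries, depth and scaling, and these distances are descriptions without a test.

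**Figure D5:**
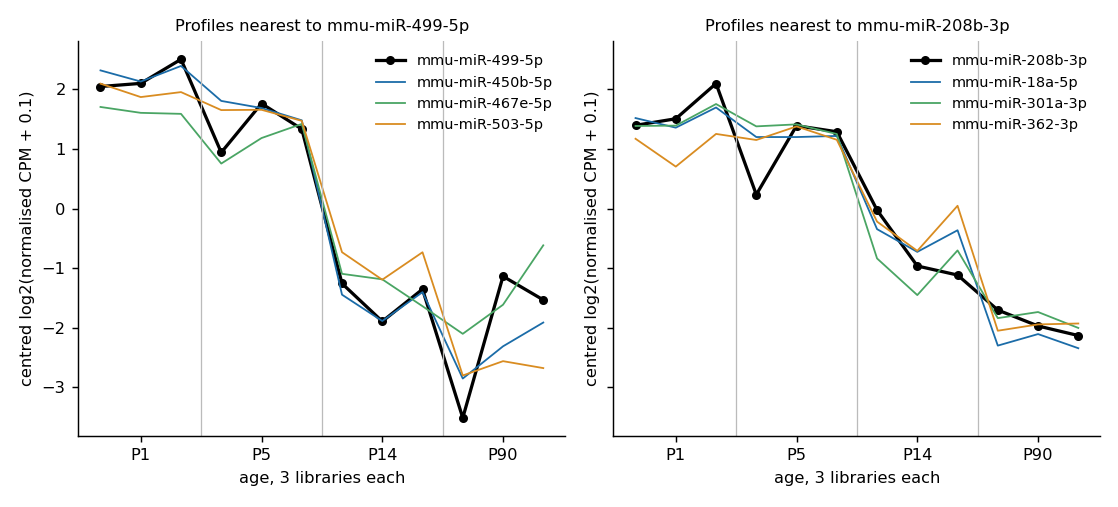
Centred log2(normalised CPM + 0.1) (vertical axis) over the 12 libraries in replicate order within each age (horizontal axis) for mmu-miR-499-5p (left) and mmu-miR-208b-3p (right) in black, with the 3 nearest other miRNAs by RMS difference in colour. The lines fall together between P5 and P14, and the first P90 library of mmu-miR-499-5p and the first P5 library of both members dip below their neighbours.

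The other muscle miRNAs of a list of 5 followed mixed courses. MiR-1a-3p and miR-133a-3p are transcribed together in striated muscle, miR-206-3p and miR-133b-3p come from a further locus used in skeletal muscle, and miR-486a-5p lies in the Ank1 gene. None of the 5 was called between P1 and P5 (edgeR), though 2 had an unadjusted p under 0.05 and DESeq2 called 1. Between P5 and P14, 2 rose and 1 fell, and between P14 and P90, 3 rose and 1 fell. Between P1 and P90, 3 rose and 1 fell, with a median log2FC of the list of 2.66 against -0.72 over all miRNAs tested. The one that fell was miR-206-3p (log2FC -3.78, SE 0.16, edgeR Padj = 5.06e-12), a decrease of similar size to that of mmu-miR-499-5p, and between P5 and P14, where mmu-miR-499-5p changed most, it differed by 0.03 (SE 0.14, edgeR Padj = 0.869). By library totals alone, 1 of the 5 rose and 4 fell between P14 and P90, so the directions for this step depend on scaling. Between P1 and P90, 2 rose and 2 fell by library totals, so this comparison depends on scaling as well.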

How the data were processed

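Small RNA was sequenced from 12 libraries of mouse quadriceps, 3 at each of P1, P5, P14 and P90, grouped by their titles. The authors trimmed reads with cutadapt 1.18, aligned them to GRCm38 with Bowtie2 2.4.1 and assigned them to mature miRNAs with featureCounts 2.0.1, and they deposited raw counts without normalisation. The strand and multimapping options of the counting are not given in the sources used here, and the DESeq2 1.30.1 of the submitters' notes left no values in the table.

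The tool was edgeR 4.0.16 (R 4.3.3). Low counts were removed by filterByExpr (minimum count 10), libraries were scaled by TMM, and 1 quasi-likelihood model took age as its only factor. F-tests were 2-sided, with Benjamini-Hochberg adjustment over the 809 miRNAs tested. The named miRNAs are the 6 members, a list of 5 other muscle miRNAs, the 3 non-members nearest to mmu-miR-499-5p and to mmu-miR-208b-3p, and markers of cell types. The members and lists were chosen with earlier results of these data known. Library totals were 20363495 to 53126984 counts. Intervals and floors (3 counts) cover counting error only. Sequences came from RefSeq (GRCm38.p6) and intron numbers from GENCODE, whose coordinates were not used. A match to a mature sequence, needed for GC content, was found for 85.0% of the miRNAs tested.

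Alternatives were RLE size factors, library totals, upper-quartile factors, no filter, DESeq2 1.42.0, a replicate block, a correction for GC content, a fit of only the 2 ages compared and leaving out each library. Leaving out the 3 P14 libraries was added after seeing the data. The fitting steps were tested on simulated data. These were not built with a trend with GC content or with the scaling shift seen at P90, which they therefore do not test.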

Additional observations from a re-analysis of the deposited data

How the results depend on the processing

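For P14 versus P5 and P90 versus P1, the decreases of mmu-miR-499-5p and mmu-miR-208b-3p kept their direction and their call under every alternative run. For mmu-miR-208b-3p at P90, with too few counts there for the filter, this is given as a value and not as support. For P5 versus P1, 1 member was called in place of 0 without the filter, with only the 2 ages in the fit and without the first P90 library (0 to 1 over the fits without 1 library). This member was mmu-miR-499-5p, with log2FC -0.87 (edgeR Padj = 4.08e-05), -0.88 and -0.86, and it ranged from -1.08 to -0.67 without 1 library. For P90 versus P14, the number of members called was 0 with RLE and with only the 2 ages in the fit, 2 without the filter, 2 with the GC trend removed, 4 with library totals and 1 to 3 without 1 library. In that step mmu-miR-208b-3p had log2FC -1.10 with RLE, 0.12 with upper-quartile factors and -1.16 with only the 2 ages in the fit, and -1.61 to -0.96 without 1 library. Mmu-miR-499-5p had 0.10 with RLE, 0.10 with DESeq2, 0.070 with only the 2 ages in the fit, 1.29 with upper-quartile factors, -1.74 with the GC trend removed and -2.55 with library totals, and -0.75 to 0.17 without 1 library. The sign of mmu-miR-208a-5p turned for P5 versus P1 without the first P5 library (0.10, range -0.73 to 0.10) and for P90 versus P1 with upper-quartile factors (0.42). It was not a call in either of these settings. Without the first P90 library mmu-miR-208a-5p was called for P90 versus P1 (-6.63, edgeR Padj = 0.0136) and for P90 versus P14 (-7.25, edgeR Padj = 0.00751), with no count left at P90. The log2 ratio of mmu-miR-499-5p to mmu-miR-208b-3p, P90 minus P1, was -0.52, and -1.01 to 0.33 without 1 library. The causes of these changes were not tested.

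A correlation of deviations over 0.1 was found in 7 of 18 pairs with the same replicate number (range -0.34 to 0.25). Among pairs with different numbers it was found in 10 of 36 (range -0.38 to 0.42). These correlations do not decide whether replicate numbers pair the libraries, and the main model had no block. With a replicate block, the members called were 0 for P5 versus P1, 3 for P14 versus P5, 1 for P90 versus P14 and, for P90 against P1, 3, as without it, and the ratio to mmu-miR-208b-3p was -0.52 (exact permutation test, adjusted p = 0.684). Over all miRNAs, the calls for P5 versus P1 were 36, against 62 without the filter, 81 with DESeq2, 15 with the replicate block and 87 with only the 2 ages in the fit. For P90 versus P14, 181 rose and 297 fell with TMM, 18 and 628 with library totals, and 382 and 159 with upper-quartile factors. For P90 versus P1 these were 204 and 333, 36 and 647, and 391 and 192. Without the 3 P14 libraries, the members called for P5 versus P1 and P90 versus P1 were 0 and 3, as before. Depth limited mmu-miR-208a-3p, mmu-miR-208b-5p and, from P14 on, mmu-miR-499-3p, which had at most 15 counts in a library.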
